A study of Homo sapiens with 12 samples.

Results

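The 37 genes described here build or control the contacts between epithelial cells. They were 12 desmosomal genes, 8 genes of the adherens junction, 10 of the tight junction and 7 other genes of epithelial cells, taken by gene symbol out of 61569 gene IDs listed in the deposited tables. The cells were KYSE150, an established human cell line from an oesophageal squamous cell carcinoma. They received 1 of 2 small interfering RNAs (siRNAs), siANLN against the transcript of anillin (ANLN) or the control siNC, which the labels also call WT, and were harvested for RNA after 24 h or 48 h. Every library came from transfected cells, so no untransfected group enters any comparison. There were 3 libraries per group, 12 in all, which the labels call biological replicates, and p-values measure the spread among these libraries. The labels name 1 siRNA per arm, and its sequence was not used here. The rows were read as siANLN against siNC within each time.

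Desmosomes tie the keratin filaments of neighbouring cells together. Their cadherins, the desmogleins and desmocollins, bind outside the cell, and inside it plakoglobin and the plakophilins link them to desmoplakin, which holds keratin. Adherens junctions couple classical cadherins to actin through the catenins, with nectins and afadin beside them, and tight junctions seal the space between cells with claudins, occludin and their scaffold proteins. Stratified squamous epithelium is rich in desmosomes. Anillin is an actin-binding scaffold of the contractile ring in dividing cells, and in Xenopus embryos it has also been described at cell junctions.

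Libraries held 14891932 to 17921808 counts at 24 h and 11805488 to 12448411 at 48 h. ANLN stood at 911, 886 and 879 CPM in the siNC libraries and 110.4, 98.5 and 102 CPM in the siANLN libraries at 24 h, with 11.6% of the control level left, and 11.1% was left at 48 h. Levels are CPM, read counts put on 1 library size by TMM, and changes were tested with edgeR's quasi-likelihood test, called at a Benjamini-Hochberg adjusted p under 0.05 over all genes tested. In bulk RNA, fewer cells expressing a gene and less RNA per cell cannot be told apart. The deposited tables for 24 h and 48 h differ in how they were made, so levels are compared only within a time. Control levels of 4 members lay over 4-fold apart between the tables: TJP1 at 233 CPM at 24 h and 13.2 at 48 h, OCLN at 26.9 and 2.82, MARVELD2 at 23.5 and 1.69, and CLDN7 at 31.9 and 0. Of 7 squamous markers, 6 were above 1 CPM at both times, and their summed level lay at 3225 to 3449 CPM in siNC and 2557 to 2643 CPM in siANLN at 24 h, and at 4347 to 4529.5 CPM in siNC and 2045 to 2087 CPM in siANLN at 48 h. KRT5, the basal keratin that desmosomes anchor, fell from 3011 to 1242 CPM in the mean at 48 h (log2 change -1.28 ± 0.02, adjusted p = 3.25e-205), and the part of this fall in the junction results was not tested. Marker lists of fibroblasts and endothelium each summed to at most 20.02 CPM in any library; the leukocyte list reached 65.8 CPM at 48 h through CD68, with PTPRC and CD3E under 1 CPM in the mean, and CD68 moved with the groups, from 38.6 to 63.8 CPM (log2 change 0.73 ± 0.06, adjusted p = 4e-30), its part in the results not tested.

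Sequences around annotated starts of junction genes are shown first, for members that moved in opposite directions and hold the same short motifs. RefSeq promoter windows (GRCh38.p14, 300 bases around the annotated start) were matched to 23 of the 37 members. The windows of DSP (chr6:7541421-7541720, plus strand), a gene that fell at 48 h, and AFDN (chr6:167827385-167827684, plus strand), a gene that rose, carry the E-box CAGGTG or its reverse complement CACCTG in capitals. Those of CLDN4 (chr7:73830746-73831045, plus strand), which fell, and PERP (chr6:138107370-138107669, minus strand), which rose, carry the AP-1 motif in capitals. It was searched loosely as TGANTCA with N as any base, so TGATTCA in CLDN4 counts as a match.
DSP: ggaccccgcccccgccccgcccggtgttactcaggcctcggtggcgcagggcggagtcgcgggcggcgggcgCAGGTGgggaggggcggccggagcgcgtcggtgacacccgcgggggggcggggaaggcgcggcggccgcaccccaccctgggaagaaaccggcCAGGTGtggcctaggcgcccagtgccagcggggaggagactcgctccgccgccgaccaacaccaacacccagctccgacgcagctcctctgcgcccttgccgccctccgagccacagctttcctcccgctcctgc
AFDN: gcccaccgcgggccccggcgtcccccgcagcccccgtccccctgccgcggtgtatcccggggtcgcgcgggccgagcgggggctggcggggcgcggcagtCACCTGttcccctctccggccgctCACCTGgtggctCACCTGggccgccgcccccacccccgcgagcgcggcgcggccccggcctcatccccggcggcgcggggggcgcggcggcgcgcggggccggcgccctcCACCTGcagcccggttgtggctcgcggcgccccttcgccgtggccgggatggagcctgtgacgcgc
CLDN4: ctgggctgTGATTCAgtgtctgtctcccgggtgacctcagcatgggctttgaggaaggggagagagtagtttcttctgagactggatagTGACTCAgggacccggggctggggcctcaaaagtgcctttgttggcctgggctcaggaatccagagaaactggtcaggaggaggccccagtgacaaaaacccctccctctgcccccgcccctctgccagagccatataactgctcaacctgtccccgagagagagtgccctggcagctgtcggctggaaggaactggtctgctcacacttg
PERP: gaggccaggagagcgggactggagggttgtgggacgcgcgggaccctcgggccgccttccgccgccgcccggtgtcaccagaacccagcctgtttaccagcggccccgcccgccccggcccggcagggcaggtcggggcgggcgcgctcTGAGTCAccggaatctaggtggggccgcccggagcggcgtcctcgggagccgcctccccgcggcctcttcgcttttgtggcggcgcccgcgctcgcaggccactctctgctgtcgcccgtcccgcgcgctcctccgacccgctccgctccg
These members have 35 windows, since some genes have several annotated starts. The E-box was in 11 of the 35 (31.4%), of 10 members, and in 20.6% of all 35116 windows. The AP-1 motif, which is its own reverse complement, was in 3 of the 35 (8.57%; PERP, CLDN4 and SPINT1) and in 7.71% of all windows. The motif AACCGGTT, known from grainyhead-like factors, was in 0 of the 35 and in 0.134% of all windows. DSG3, DSC3 and PKP1, all lower at 48 h, held none of the 3 motifs in these windows. FAT2, also lower at 48 h, held none in its window (chr5:151591282-151591581, minus strand). That window lies upstream of the FAT2 gene as placed below (chr5:151504093-151568944) and does not reach its start. Sequence next to that start was therefore not searched. Of the windows shown, those of CLDN4 and AFDN lie inside their genes as placed below, past the outermost start. Sequence next to those outermost starts was not searched either. Each motif was searched on both strands, and a match describes letters, not binding.

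At 24 h, 10 of 36 tested members passed the test, against a background of 10.8% of all 14698 genes tested. All members are protein-coding, and of 11952 tested protein-coding genes with a 3' UTR, 7.07% rose and 5.77% fell. The 3 members that rose (background 5.93%) were PERP, PKP2 and AFDN, and the 7 that fell (background 4.86%) were NECTIN4, PPL, CLDN4, JUP, CDH1, PKP1 and CTNND1. By group, 2 of 12 desmosomal genes rose and 3 fell, 1 of 8 adherens junction genes rose and 3 fell, 1 of 9 tight junction genes fell, and 0 of the 7 other epithelial genes passed in edgeR or DESeq2, with 1 (ST14) at an unadjusted p under 0.05. The median log2 change was -0.02 for desmosomal, -0.05 for adherens junction and 0.01 for tight junction genes, beside -0.01 over all genes. Levels of the siNC and siANLN libraries did not overlap for 18 of 36 members, against 25.6% of all genes tested. Changes were small, and on the authors' FPKM values limma called 5 of the 10 with a low-value filter and 0 without it, where 16 members had an unadjusted p under 0.05.

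At 48 h, 22 of 35 tested members passed, against 43.6% of all 16994 genes tested. Of 11810 tested protein-coding genes with a 3' UTR, 26.2% rose and 25.1% fell. The 7 members that rose (background 22.2%) were PERP, AFDN, CLDN12, PKP2, F11R, EPCAM and CTNNA1. The 15 that fell (background 21.3%) were PPL, PKP1, FAT2, NECTIN4, DSC3, CTNND1, DSG3, DSP, CLDN4, CGN, CDH1, DSC2, ST14, JUP and CDH3. In the desmosome 2 genes rose and 7 of 12 fell, in the adherens junction 2 rose and 4 of 8 fell, in the tight junction 2 rose and 2 of 8 fell, and among the others 1 rose and 2 of 7 fell. The median log2 change was -0.17 for desmosomal, -0.06 for adherens junction, -0.15 for tight junction and -0.04 for the other genes, beside -0.0027 over all genes. The tight junction median rests on 8 genes, 3 of them at low counts, and moved to -0.01 with no filter on low counts. The 2 groups of libraries did not overlap for 24 of 35 members, against 49.7% of all genes.

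**Figure D1:**
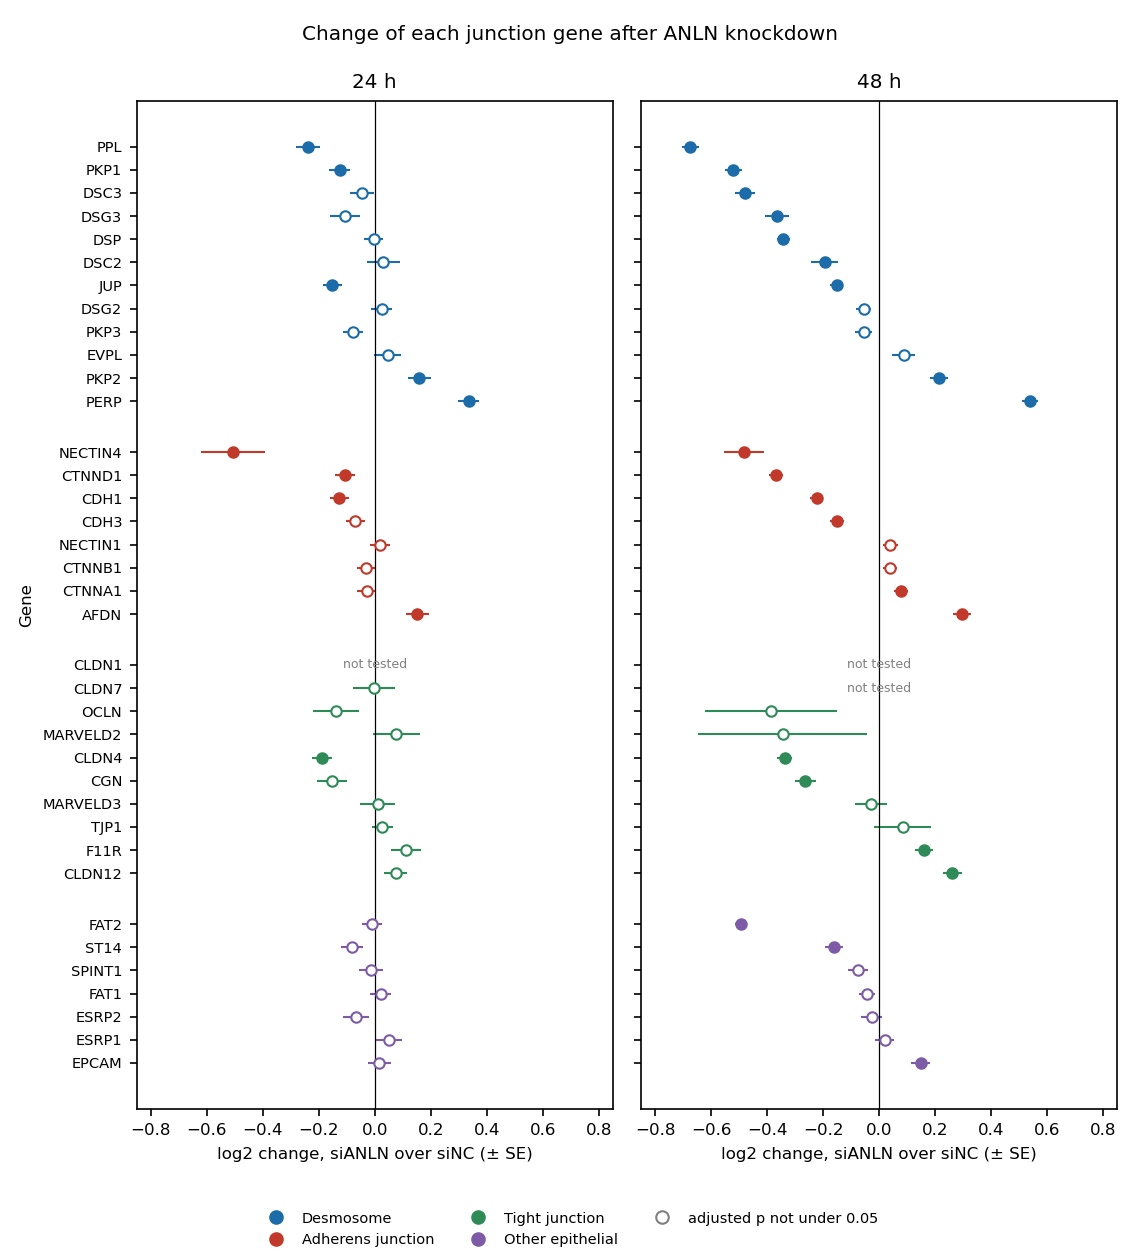
The log2 change of each gene, siANLN over siNC, with its standard error at 24 h and 48 h; colours give the junction group and filled points passed the test. At 24 h filled points number 10, and at 48 h 22, with PPL at -0.67 and PERP at 0.54 farthest from 0.

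Over all genes tested in edgeR, 10.8% passed at 24 h and 21.3% fell at 48 h. Of the desmosomal cadherins, 0 of 4 passed the test at 24 h in edgeR or DESeq2, with DSG3 alone at an unadjusted p under 0.05. At 48 h 3 of these 4 cadherins fell. Their genes lie in 1 cluster on chromosome 18 of GRCh38: DSC3 (chr18:30990008-31042815, minus strand), DSC2 (chr18:31058840-31102522, minus strand), DSG3 (chr18:31447795-31478702, plus strand) and DSG2 (chr18:31498043-31549008, plus strand). DSG3, the desmoglein of the deep layers of squamous epithelium and the autoantigen of pemphigus vulgaris, stood at 112, 109 and 109.5 CPM in the siNC libraries and 82.5, 89.8 and 84.2 CPM in the siANLN libraries at 48 h. It fell by 22.3% with no overlap between the groups (log2 change -0.37 ± 0.04 (SE), adjusted p = 8.91e-16). DSC3, the desmocollin of basal layers, was at 166, 177 and 165 CPM in the siNC libraries and 123, 123 and 117 CPM in the siANLN libraries. It fell by 28.3%, again with every siANLN library below every siNC library (log2 change -0.48 ± 0.04 (SE), adjusted p = 3.19e-32). DSC2, the more widely expressed desmocollin, fell less (log2 change -0.19 ± 0.05 (SE), adjusted p = 0.000296; adjusted p = 0.0589 with limma on unfiltered FPKM), and DSG2, the desmoglein found in simple epithelia too, did not pass (log2 change -0.06 ± 0.03 (SE), adjusted p = 0.0873). The 4 genes thus had log2 changes between -0.48 and -0.06.

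The plaque genes inside the cell did not move as 1 block. PKP1, the plakophilin most tied to stratified epithelium (chr1:201283452-201332993, plus strand), stood at 197, 196 and 198 CPM in the siNC libraries and 175, 185 and 182 CPM in the siANLN libraries at 24 h. It fell by 8.37% (log2 change -0.13 ± 0.04 (SE), adjusted p = 0.0188), and the call was lost without siNC replicate 1 (adjusted p = 0.0532) or siANLN replicate 1 (adjusted p = 0.156). By 48 h PKP1 was at 301, 299 and 293 CPM in the siNC libraries and 215, 203 and 204 CPM in the siANLN libraries, a clear separation of the groups, and fell by 30.3% (log2 change -0.52 ± 0.03 (SE), adjusted p = 3.71e-49). PKP2, a plakophilin also of heart muscle and simple epithelia (chr12:32790745-32896840, minus strand), moved the other way: it was at 156, 158 and 159.7 CPM in the siNC libraries and 172, 172 and 185 CPM in the siANLN libraries at 24 h and rose by 11.7% (log2 change 0.16 ± 0.04 (SE), adjusted p = 0.00258; adjusted p = 0.0571 without siANLN replicate 3). PKP2 rose by 16.0% at 48 h (log2 change 0.21 ± 0.03 (SE), adjusted p = 4.01e-09). PKP3, the third plakophilin, did not pass at either time, with log2 changes of -0.08 and -0.06.

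DSP encodes desmoplakin, the obligate link to keratin (chr6:7541575-7586717, plus strand). At 24 h the groups overlapped, at 533, 533 and 541 CPM in the siNC libraries and 539, 516 and 548 CPM in the siANLN libraries, and it did not pass (log2 change -0.0039 ± 0.03 (SE), adjusted p = 0.967). By 48 h DSP stood at 773, 759.6 and 758 CPM in the siNC libraries and 618, 599.6 and 588 CPM in the siANLN libraries and fell by 21.2%, with no overlap (log2 change -0.34 ± 0.02 (SE), adjusted p = 5.94e-39). JUP, which encodes plakoglobin of desmosomes and adherens junctions alike (chr17:41754604-41786931, minus strand), was at 421, 413 and 412 CPM in the siNC libraries and 362, 389 and 370.4 CPM in the siANLN libraries at 24 h. It fell by 9.97% at 24 h (log2 change -0.15 ± 0.04 (SE), adjusted p = 0.000991) and fell by 10.03% at 48 h (log2 change -0.15 ± 0.02 (SE), adjusted p = 1.29e-08), nearly the same change at both times.

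PPL encodes periplakin, a plakin of the desmosome and the cornified envelope (chr16:4882507-4960741, minus strand), and fell most of all members at 48 h. At 24 h it was at 149, 134 and 148 CPM in the siNC libraries and 125, 118 and 122 CPM in the siANLN libraries and fell by 15.3% (log2 change -0.24 ± 0.04 (SE), adjusted p = 1.58e-05). By 48 h PPL was at 302, 298 and 298 CPM in the siNC libraries and 185, 189.6 and 189 CPM in the siANLN libraries and fell by 37.3% (log2 change -0.67 ± 0.03 (SE), adjusted p = 1.72e-69). The groups were apart at both times. EVPL, its partner envoplakin, did not pass at either time, with log2 changes of 0.05 and 0.09. PERP, a tetraspan desmosomal protein and p53 and p63 target (chr6:138088505-138107511, minus strand), rose most of all members. It stood at 263, 275 and 244 CPM in the siNC libraries and 317, 338 and 333 CPM in the siANLN libraries at 24 h and rose by 26.2% (log2 change 0.34 ± 0.04 (SE), adjusted p = 6.24e-11). PERP was at 48 h at 199.7, 202 and 205 CPM in the siNC libraries and 287, 295 and 299 CPM in the siANLN libraries and rose by 45.2%, opposite to most desmosomal genes (log2 change 0.54 ± 0.03 (SE), adjusted p = 3.38e-51).

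**Figure D2:**
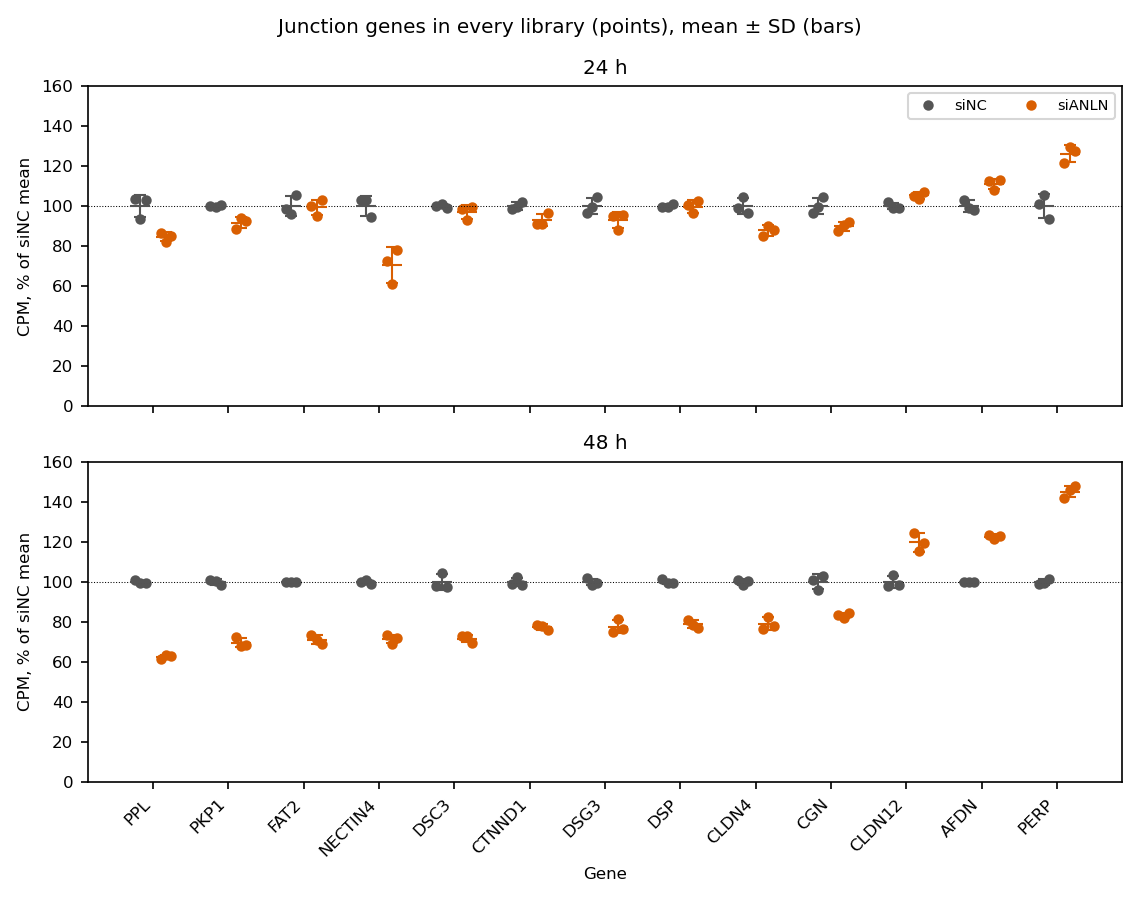
CPM of every library as percent of the siNC mean of its time for the 13 members called at 48 h with a log2 change of at least 0.25 in size; points are libraries, bars the mean ± SD of 3. At 48 h the siANLN points of all 13 genes lie apart from the siNC points, from PPL at the left to PERP at the right. The 13 were chosen by their calls on these same libraries, so their separation was largely set by that choice. Of all genes tested at 48 h, 49.7% did not overlap.

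Among the adherens junction genes both cadherins fell by 48 h and the catenins divided. CDH1, E-cadherin (chr16:68737225-68835548, plus strand), was at 428, 413 and 432 CPM in the siNC libraries and 399, 380.1 and 387 CPM in the siANLN libraries at 24 h and fell by 8.39% (log2 change -0.13 ± 0.03 (SE), adjusted p = 0.0076; adjusted p = 0.0743 without siANLN replicate 2). CDH1 fell by 14.3% at 48 h (log2 change -0.22 ± 0.02 (SE), adjusted p = 5.32e-18). Its neighbour CDH3, P-cadherin of basal cells (chr16:68636189-68722616, plus strand), did not pass at 24 h (log2 change -0.07) and fell at 48 h (log2 change -0.15 ± 0.02 (SE), adjusted p = 5.48e-09). CTNND1 encodes p120-catenin, which holds cadherins at the membrane (chr11:57753243-57819546, plus strand). It was at 369, 372 and 382 CPM in the siNC libraries and 341, 340.5 and 361 CPM in the siANLN libraries at 24 h, and fell by 7.08% (log2 change -0.11 ± 0.04 (SE), adjusted p = 0.0365), but the call was lost without siNC replicate 2 or 3 or siANLN replicate 1 or 2 (adjusted p from 0.0705 to 0.186). Its 48 h levels were 533, 551 and 531 CPM in the siNC libraries and 423, 419 and 409 CPM in the siANLN libraries, and it fell by 22.6% (log2 change -0.37 ± 0.02 (SE), adjusted p = 1.31e-38), and the groups lay apart. In the 24 h table alone a read-through gene, TMX2-CTNND1, is listed beside it with 321 shared exon bases.

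CTNNA1, alpha-catenin, which joins the complex to actin (chr5:138610967-138935034, plus strand), did not pass at 24 h (log2 change -0.03). At 48 h it stood at 447, 430.1 and 439.8 CPM in the siNC libraries and 469, 462 and 461 CPM in the siANLN libraries and rose by 5.63% (log2 change 0.08 ± 0.02 (SE), adjusted p = 0.00489). That rise was small, and scaling by library size alone ended the call (log2 change 0.04, adjusted p = 0.148), as did leaving out siNC replicate 2 (adjusted p = 0.0719). CTNNB1, beta-catenin, did not pass, with log2 changes of -0.03 and 0.04.

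NECTIN4, a nectin of carcinomas and the target of the antibody-drug conjugate enfortumab vedotin (chr1:161070995-161089599, minus strand), had the lowest control level of the called members. At 24 h it was at 15.2, 15.2 and 14.0 CPM in the siNC libraries and 10.8, 9.03 and 11.6 CPM in the siANLN libraries and fell by 29.4% (log2 change -0.51 ± 0.11 (SE), adjusted p = 0.000715). Its 48 h levels were 32.4, 32.7 and 32.0 CPM in the siNC libraries and 23.7, 22.4 and 23.3 CPM in the siANLN libraries, and it fell by 28.5% (log2 change -0.48 ± 0.07 (SE), adjusted p = 8.67e-10), so the groups lay apart at both times. NECTIN1, another nectin, did not pass (0.02 and 0.04 on the log2 scale). AFDN, afadin, which ties nectins to actin (chr6:167826922-167972023, plus strand), went up. It was at 141, 135 and 134 CPM in the siNC libraries and 154, 148 and 154 CPM in the siANLN libraries at 24 h (log2 change 0.15 ± 0.04 (SE), adjusted p = 0.0063) and at 172, 172 and 171 CPM in the siNC libraries and 212, 208 and 211 CPM in the siANLN libraries at 48 h (log2 change 0.29 ± 0.03 (SE), adjusted p = 6.31e-17), and rose by 22.6% by the later time.

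In the tight junction, 2 claudins moved apart. CLDN4, a sealing claudin of many carcinomas (chr7:73799542-73832693, plus strand), was at 307, 325 and 299.5 CPM in the siNC libraries and 264, 280.2 and 274 CPM in the siANLN libraries at 24 h and fell by 12.2% (log2 change -0.19 ± 0.04 (SE), adjusted p = 6.71e-05). At 48 h it was at 471, 458 and 469 CPM in the siNC libraries and 357, 385 and 364 CPM in the siANLN libraries and fell by 20.9% (log2 change -0.34 ± 0.03 (SE), adjusted p = 2.22e-31), separate at both times. CLDN12, a claudin without the usual PDZ-binding end (chr7:90383721-90513402, plus strand), did not pass at 24 h (log2 change 0.07). At 48 h it stood at 138, 146 and 139 CPM in the siNC libraries and 176, 163 and 168 CPM in the siANLN libraries and rose by 19.8% (log2 change 0.26 ± 0.03 (SE), adjusted p = 5.78e-12). CLDN12 shares exon bases with GTPBP10, CDK14 and 2 other annotated genes on its strand, so its counts are uncertain.

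F11R, junctional adhesion molecule A, rose at 48 h (log2 change 0.16 ± 0.03 (SE), adjusted p = 8.32e-06); 1853 of its exon bases are also annotated to a second gene on the same strand. CGN, cingulin, a cytoplasmic scaffold that binds actomyosin, fell at 48 h (log2 change -0.26 ± 0.04 (SE), adjusted p = 2.61e-10), and at 24 h its log2 change was -0.15 with an adjusted p of 0.0598. TJP1, the scaffold ZO-1, did not pass (0.03 and 0.08). The MARVEL proteins OCLN, MARVELD2 (tricellulin) and MARVELD3 also did not pass; MARVELD3 shares 1068 exon bases with PHLPP2 on the other strand. At 48 h the standard errors of OCLN and MARVELD2 were 0.23 and 0.30, so a change of the size seen in CLDN4 was not detectable there. CLDN7 did not pass at 24 h and had 0 or 1 counts per library at 48 h, and CLDN1, a claudin of many squamous epithelia, had 0 to 2 counts per library at either time; neither was tested there.

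Of the 7 other epithelial genes, FAT2, an atypical cadherin of squamous epithelium (chr5:151504093-151568944, minus strand), changed most. Its groups overlapped at 24 h, at 460.4, 448 and 493 CPM in the siNC libraries and 467, 445 and 479.9 CPM in the siANLN libraries (log2 change -0.01 ± 0.04 (SE), adjusted p = 0.918). At 48 h it was at 879.9, 882 and 884 CPM in the siNC libraries and 647, 624 and 609 CPM in the siANLN libraries and fell by 28.9% (log2 change -0.49 ± 0.02 (SE), adjusted p = 1.02e-67), with no overlap. Its relative FAT1 did not pass at either time (0.02 and -0.04). EPCAM, the epithelial adhesion molecule, rose at 48 h (log2 change 0.15 ± 0.04 (SE), adjusted p = 0.000141), though limma on FPKM gave an adjusted p of 0.0532. ST14, the membrane protease matriptase, fell (log2 change -0.16 ± 0.03 (SE), adjusted p = 2.84e-06), while its inhibitor SPINT1 had a log2 change of -0.07 and did not pass. The splicing factors of epithelial cells ESRP1 and ESRP2 stayed within -0.07 and 0.05 at both times and did not pass.

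The change itself differed between the times for 12 of 36 members tested, against 13.0% of all genes tested. It was lower at 48 h for 8 (background 4.71%): FAT2 (-0.47 ± 0.04 on the log2 scale, adjusted p = 1.05e-14), PPL (-0.42 ± 0.05, 6.54e-10), DSC3 (-0.42 ± 0.06, 7.8e-09), PKP1 (-0.38 ± 0.05, 1.47e-09), DSP (-0.32 ± 0.04, 1.02e-09), CTNND1 (-0.25 ± 0.04, 5.99e-06), DSG3 (-0.24 ± 0.07, 0.00588) and CLDN4 (-0.13 ± 0.05, 0.0381). It was higher for 4 (background 8.29%): PERP (0.22 ± 0.05, 0.000708), CLDN12 (0.20 ± 0.05, 0.00476), AFDN (0.16 ± 0.05, 0.0252) and CTNNA1 (0.12 ± 0.04, 0.0368). Desmosomal genes made up 5 of the 8 and 1 of the 4, beside 12 of the 36 members tested. NECTIN4 and JUP had almost the same change at both times, with differences of 0.04 ± 0.13 and 0.01 ± 0.04. Fits without 1 of the 12 libraries ended some of these calls. That of CLDN4 ended without siNC replicate 1 or 3 or siANLN replicate 2 or 3 of 24 h, or replicate 1 or 3 of either group of 48 h (adjusted p from 0.0555 to 0.157). That of AFDN ended without siNC replicate 1 or siANLN replicate 2 of 24 h, or siNC replicate 2 or siANLN replicate 1 or 3 of 48 h (0.051 to 0.0843). That of CTNNA1 ended without replicate 1 of either group of 24 h, siNC replicate 2 or 3 or any siANLN library of 48 h (0.0592 to 0.13). Scaling by library size alone ended the calls of AFDN, CTNNA1 and CLDN12 (adjusted p = 0.181, 0.292 and 0.05) and added DSC2, CDH1 and CDH3 to the lower, which left 1 higher and 11 lower, and DESeq2 that of CLDN4 (0.0676). Time and the making of the tables cannot be told apart here.

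**Figure D3:**
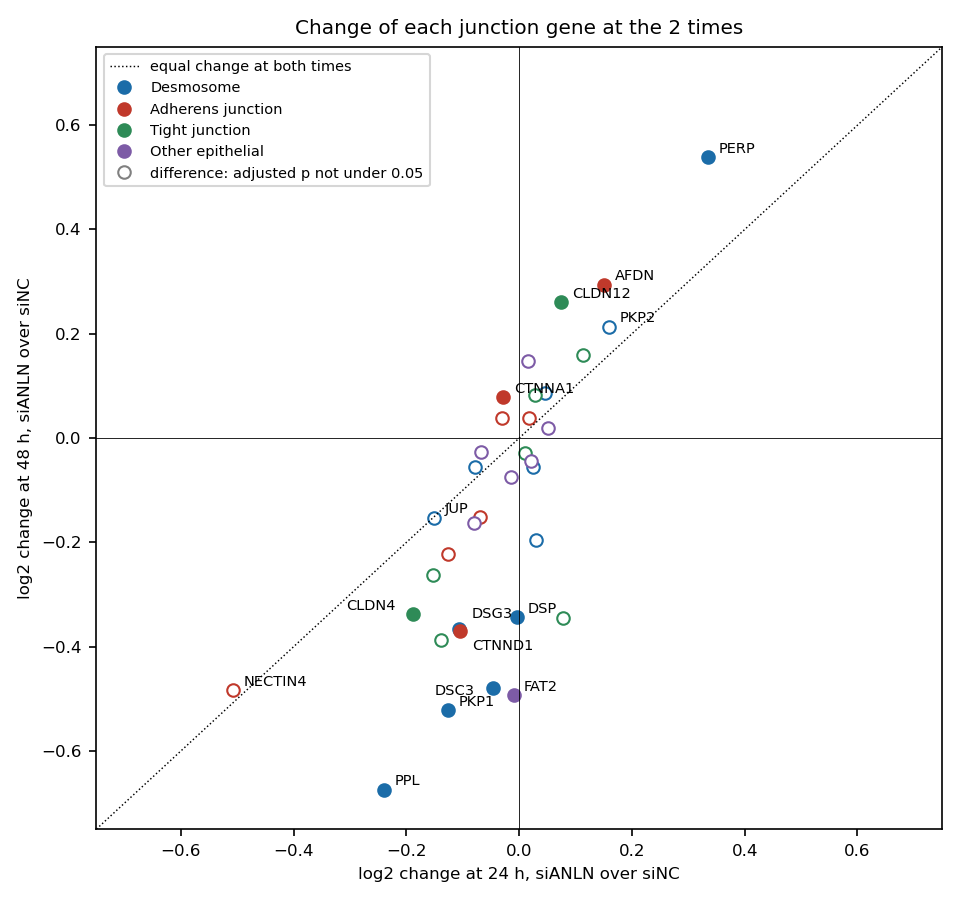
Log2 change at 24 h (x axis) against that at 48 h (y axis) for each gene tested at both times; colours give the group, filled points are the 12 genes whose change differed and the dotted line marks equal change. FAT2, DSP and DSC3 lie near 0 at 24 h and between -0.49 and -0.34 at 48 h, and NECTIN4 and JUP lie on the line.

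Levels of different genes can be set side by side only per length, on the authors' FPKM scale. The lengths used differ between the 2 times. DSP in siNC was at 536 CPM and 53.4 FPKM at 24 h, and at 763 CPM but 38.9 FPKM at 48 h. The order of genes and the sums below rest on these lengths. In siNC cells at 48 h CDH1 (100.5 ± 0.96), CLDN4 (100.1 ± 1.5) and JUP (99.6 ± 0.80) led, closer than their SDs, followed by CDH3 (87.9 ± 0.51) and PKP3 (66.1 ± 0.58). At 24 h JUP (84.5 ± 1.09) and PKP3 (84.4 ± 2.78) led, and did not differ beyond their spread. The summed FPKM of the 12 desmosomal genes went from 439 to 392.4 at 48 h and was 449.5 and 449 at 24 h. That of the 8 adherens junction genes went from 376 to 342 at 48 h and from 311 to 298 at 24 h. That of the 10 tight junction genes went from 187 to 166.5 at 48 h and from 161 to 154 at 24 h. CLDN4 alone fell by more than this last sum, from 100.1 to 77.3 at 48 h and from 66.5 to 58.3 at 24 h. At 48 h CGN also fell, from 19.8 to 16.1, while F11R went from 35.9 to 39.1 and CLDN12 from 21.2 to 24.8. The tight junction sum therefore does not describe the group.

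Ratios of related genes within a library were chosen after their values were seen and are given with no test. The ratio of PKP1 to PKP2 was 3.19, 2.96 and 3.09 in the siNC libraries at 48 h and 1.87, 1.85 and 1.83 in the siANLN libraries. The ratio of PPL to EVPL was 2.80, 2.98 and 2.96 against 1.73, 1.68 and 1.74. All ratios read at 48 h lay apart between the groups, CDH3 to CDH1 included, so the separation marks no pair. How often other gene pairs separate was not computed. PKP1 to PKP3 went from 0.732 ± 0.018 to 0.530 ± 0.031 (SD, n = 3). DSG3 to DSG2 went from 0.935 ± 0.021 to 0.756 ± 0.050 (SD, n = 3), and DSC3 to DSC2 from 3.98 ± 0.20 to 3.28 ± 0.29. CDH3 to CDH1 moved little, from 0.875 to 0.920. At 24 h PKP1 to PKP2 went from 1.42 to 1.16 and DSG3 to DSG2 from 0.304 to 0.277, on gene lengths that are not those of the 48 h table.

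**Figure D4:**
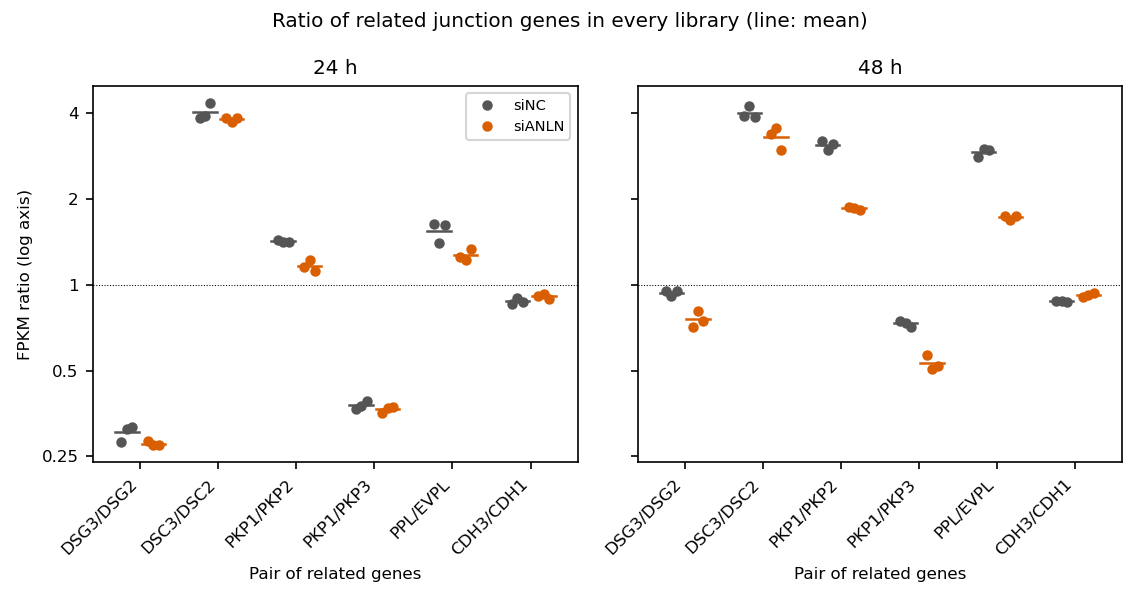
Ratio of FPKM of 2 related genes in each library (log axis) at 24 h and 48 h; points are libraries and lines their means. At 48 h PKP1/PKP2 lies at 2.96 to 3.19 in siNC and 1.83 to 1.87 in siANLN, and CDH3/CDH1 stays between 0.872 and 0.933.

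Genes around the junctions, from wider lists, are given beside the background over all genes, 5.93% higher and 4.86% lower at 24 h and 22.2% higher and 21.3% lower at 48 h. The wider adherens junction list also holds genes that are not junction components, EPN1 and CTNNBL1 among them. Of its tested genes 1 of 15 rose and 4 fell at 24 h, and 4 of 14 rose and 7 fell at 48 h. VCL, vinculin, fell at both times (log2 change -0.33 ± 0.04, adjusted p = 5.11e-11 at 24 h; log2 change -0.80 ± 0.03, adjusted p = 6.9e-87 at 48 h). EPN1 rose (log2 change 0.17 ± 0.04, adjusted p = 0.000525; log2 change 0.69 ± 0.03, adjusted p = 3.79e-58), AJUBA fell at both times (log2 change -0.16 ± 0.03, adjusted p = 0.000414; log2 change -0.46 ± 0.03, adjusted p = 5.75e-40), and CTNNAL1 rose at 48 h (log2 change 0.49 ± 0.03, adjusted p = 7.55e-43). Of other tight junction genes 1 of 24 rose at 24 h, AMOTL1 (log2 change 0.23 ± 0.04, adjusted p = 4.51e-06), and 4 of 23 rose and 8 fell at 48 h. TJP3, the scaffold ZO-3, fell most among those named (log2 change -1.32 ± 0.10, adjusted p = 1.48e-33), AMOTL1 rose further (log2 change 0.38 ± 0.03, adjusted p = 3.25e-29), and AMOTL2 fell (log2 change -0.19 ± 0.03, adjusted p = 2.43e-08). Of the other desmosomal genes only PKP4 was tested, at either time, and it did not pass.

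The same backgrounds apply to the lists that follow. The gap junction list also holds PANX1, a pannexin and not a connexin. Of its tested genes 1 of 6 rose and 1 fell at 24 h, PANX1 (log2 change 0.15 ± 0.05, adjusted p = 0.0499) and GJA1, connexin 43 (log2 change -0.32 ± 0.09, adjusted p = 0.00885). At 48 h 2 of 7 rose and 1 fell, PANX1 (log2 change 0.37 ± 0.05, adjusted p = 4.84e-13), GJC1 (log2 change 0.26 ± 0.05, adjusted p = 1.9e-06) and GJB2 (log2 change -0.67 ± 0.18, adjusted p = 0.000807). Of 25 junction regulators 2 fell at 24 h, KLF4 (log2 change -0.25 ± 0.05, adjusted p = 2.61e-05) and ARHGAP29 (log2 change -0.24 ± 0.04, adjusted p = 3.13e-05). At 48 h 4 of 25 rose and 7 fell, beside 22.2% higher and 21.3% lower over all genes. Of these regulators TP63 (log2 change -0.43 ± 0.03, adjusted p = 6.08e-35), the epithelial factor ELF3 (log2 change -0.76 ± 0.06, adjusted p = 1.47e-33) and KLF4 (log2 change -0.41 ± 0.04, adjusted p = 6.12e-22) had the smallest adjusted p. Of mesenchymal genes 1 of 6 fell at 24 h, ITGA5 (log2 change -0.13 ± 0.04, adjusted p = 0.0173), and 1 of 7 rose and 4 fell at 48 h, among them COL1A1 (log2 change -0.90 ± 0.10, adjusted p = 1.18e-16), FN1 (log2 change -0.25 ± 0.04, adjusted p = 1.08e-08) and S100A4 (log2 change -1.51 ± 0.41, adjusted p = 0.001). S100A4 lay near the floor at 48 h, at 1.35 CPM in siNC and 0.47 CPM in siANLN in the mean, and was not tested at 24 h. The 1 that rose was VIM, at 4.47 and 6.64 CPM in the mean.

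The 3' UTRs of the members, from GENCODE 29 transcripts on GRCh38, were also read for 2 pairs of words that had been picked in these data as commoner in genes that rose or fell, so their shares support nothing by themselves. The words TTCCCAA and TCCCAAA were held by 15 tested members, of which 4 rose and 6 fell at 48 h, and of the 20 members without them 3 rose and 9 fell. Over all genes searched, 32.3% of 3618 genes with these words and 22.0% of 7954 genes with neither pair fell at 48 h. Of the same 2 sets of genes, 21.6% and 27.8% rose. The words TCGGAGA and CGGAGAA were in 0 members. PPL, DSP, DSG3, CTNND1, FAT2 and NECTIN4, which fell, hold none of these words.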

How the data were processed

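RNA of KYSE150 cells was measured by sequencing in 12 libraries, 3 for each of siNC and siANLN at 24 h and 48 h. Per the submitters' processing notes, the authors used cutadapt 1.18, STAR 2.7.3a with the GRCh38 genome, featureCounts and DESeq2 1.44.0. The strand setting is not given in the sources used here, so overlapping genes cannot be told apart. The deposited counts are whole numbers per gene; the deposited FPKM values scale them by gene length and library total. At 48 h 202 IDs were repeated with identical values and kept once.

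Counts were tested with edgeR 4.0.16 in R 4.3.3 (TMM, filterByExpr, robust quasi-likelihood F test, two-sided), over all genes of a time, 6 libraries a fit, with Benjamini-Hochberg adjustment at 0.05. The difference between the times used all 12 libraries and IDs in both tables. FPKM values served for levels between genes and for limma 3.58.1 with a pseudocount of 1 or 0.1. Other alternatives were DESeq2 1.42.0, library size alone, no filter, a replicate block, 1 fit of all libraries, and leaving out each library. The fit was tested on simulated data.

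The members and lists were chosen with earlier results of these data known. Every library is given for members called at 24 h, called at 48 h with a log2 change of at least 0.3, or changing differently between times; of each wider list up to 3 called genes per time, by adjusted p. Same-numbered libraries deviated from their group means with correlations of -0.0212 to 0.0305, so the numbers were not taken as pairs. Replicates differed by more than sampling noise.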

Additional observations from a re-analysis of the deposited data

Results flagged for a closer look

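For 12 members the change after siANLN differed between 24 h and 48 h by the test of the difference itself. The log2 change at 48 h minus that at 24 h was -0.47 for FAT2, -0.42 for PPL, -0.42 for DSC3, -0.38 for PKP1, -0.32 for DSP, -0.25 for CTNND1, -0.24 for DSG3 and -0.13 for CLDN4. It was 0.22 for PERP, 0.20 for CLDN12, 0.16 for AFDN and 0.12 for CTNNA1. The times come from tables that were made differently, and the part of this in the differences was not tested.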

How the results depend on the processing

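No result changed direction under an alternative among called values, and of the members called, 0 of 10 at 24 h, 19 of 22 at 48 h and 8 of 12 differences passed in every setting. At 24 h limma on FPKM called 1 member higher and 4 lower with a pseudocount of 1 or 0.1, and 0 and 0 with no filter. At 48 h library size alone moved the median of desmosomal genes to -0.2096, of adherens junction genes to -0.0919, of tight junction genes to -0.1819 and of other genes to -0.0803; over all genes this scaling put the median at -0.0386. Limma on FPKM gave, for desmosomal, adherens junction, tight junction and other genes, -0.1903, -0.0902, -0.066 and -0.0763 with a pseudocount of 1, and -0.1903, -0.0902, -0.0284 and -0.0763 with no filter. With a pseudocount of 0.1 it gave -0.208 (desmosomal), -0.0911 (adherens junction), -0.1745 (tight junction) and -0.08 (other). In edgeR the tight junction median was -0.0082 with no filter and -0.0272 in 1 fit of all 12 libraries. Library size alone left 1 member higher and 11 lower in the difference. The cause of these shifts was not tested.

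Leaving out 1 library gave 2 to 3 members higher and 5 to 7 lower at 24 h, 6 to 8 higher and 15 to 17 lower at 48 h, and 2 to 5 higher and 7 to 9 lower in the difference. Medians then ranged, at 24 h, from -0.0417 to 0.0058 for desmosomal, -0.0609 to -0.0424 for adherens junction, -0.0508 to 0.052 for tight junction and -0.0339 to 0.0227 for other genes; at 48 h from -0.1991 to -0.1577, -0.0745 to -0.0533, -0.1689 to -0.1233 and -0.0583 to -0.023.

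With the replicate block 3 members were higher and 8 lower at 24 h, the added one being CGN (adjusted p = 0.0449), 7 and 15 at 48 h, and 5 and 9 in the difference. The same-number correlations, -0.0212 to 0.0305, did not pair the libraries.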

Other observations

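2 regulators of epithelial junction genes with low levels at 48 h are given here, named after their values were seen. They do not speak for the regulator list. There EHF rose from 11.2 to 21.4 CPM in the mean (log2 change 0.93 ± 0.09, adjusted p = 3.96e-19), and GRHL1, GRHL2, SNAI2 and TWIST1 did not pass. GRHL3, a grainyhead-like factor, was at 4.06 CPM in siNC and 1.35 in siANLN in the mean (log2 change -1.58 ± 0.24, adjusted p = 1.6e-09). ZEB1, a repressor that binds E-boxes, was at 3.04 and 4.78 CPM (log2 change 0.65 ± 0.19, adjusted p = 0.00244), with the lowest siANLN library at 3.52 and the highest siNC library at 3.53.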
